A study of Mus musculus with 16 samples.

Results

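The ERV1 and ERVL windows are short stretches of the mouse genome, nearly all 24 bp long, that the deposited repeat table assigns to the ERV1 or ERVL group of endogenous retroviruses. They were chosen by name: every window whose identifier ends in ERV1 or ERVL, leaving out the ERVL-MaLR windows. This gave 2786 of the 205758 windows in the table, 1846 ERV1 and 940 ERVL, and of all windows 169064 carry a repeat family. The windows carry 172 repeat names.

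RNA was sequenced from dissociated mouse dorsal root ganglia of lumbar levels L4 to L6, which hold the cell bodies of sensory neurons. The groups were injured ganglia 24 h after a sciatic nerve crush, naive ganglia at 24 h, injured ganglia at 72 h and naive ganglia at 72 h, with 4 libraries each. The series text says that injured and naive ganglia came from the same animals, 4 mice at each time, but no label ties a library to a mouse, so groups were compared unpaired. Strain, sex and age are not given in the sources used here, all samples carry a Percoll label, and in such bulk RNA fewer cells of a type and less RNA per cell cannot be told apart.

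Endogenous retroviruses are remnants of retroviral infections of the germ line. An intact copy has an internal part with gag, pol and sometimes env, flanked by long terminal repeats (LTRs) that carry a promoter and a polyadenylation signal. ERV1 holds copies related to murine leukemia virus and the VL30 elements, which are retrovirus-like but do not code for working viral proteins, and ERVL holds MERVL and its older relatives. In most adult tissues they are kept silent by DNA methylation and by histone H3 lysine 9 methylation laid down by the TRIM28 and SETDB1 machinery.

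The windows with the most reads lie in exons of cellular genes, and their sequences show what was counted. Printed here in transcript orientation, as the GENCODE M21 transcripts (GRCm38) read, are the windows with the highest counts that lie in a GENCODE exon, the Fv1 window and the Gm42047 window described further on. Aldh4a1, a mitochondrial enzyme of proline breakdown, holds chr4:139649649-139649672. Syn2, the synaptic vesicle protein synapsin II, holds chr6:115274558-115274581. Map4k4, a kinase upstream of JNK signalling, holds chr1:40007454-40007477. The non-coding RNA B230354K17Rik holds chr17:45436837-45436860. Mrps2, a mitochondrial ribosomal protein, holds chr2:28470601-28470624. Fv1, a mouse restriction factor against murine leukemia virus that itself derives from an ERVL gag gene, holds chr4:147870153-147870176. The non-coding gene Gm42047 holds chr8:121840468-121840491. All 7 lie on plus-strand transcripts.
Aldh4a1: aagtttttatgatggtgcagtaaa
Syn2: ggctgtttgttaacagtgtacaaa
Map4k4: ctccatcgccacgccaggaaagtg
B230354K17Rik: aggtgaccctgtatatgaaacttt
Mrps2: tgtttaatatggaagctcgcacag
Fv1: taacttttgtccgggaaactagag
Gm42047: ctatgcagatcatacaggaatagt

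Many exon windows hold the polyadenylation hexamer AATAAA, the signal at which transcripts are cut and tailed. Of 337 ERV1 and ERVL windows of 24 bp that lie wholly in exons, 144 (42.7%) held AATAAA on the transcript strand, against 25.1% of all 37333 such windows in the table and 15.5% of those of other repeat families. On the other strand the hexamer was in 7.72% of the ERV1 and ERVL windows and 3.72% of all such windows. The AP-1 motif TGANTCA, searched on both strands without regard to overlap with AATAAA, was in 0.890% of them and 0.445% of all. Shown with AATAAA in capitals are the 3 windows with the highest counts that hold it, all plus-strand: chr7:127700759-127700782 in the non-coding gene Gm39090, chr5:138458627-138458650 in the zinc finger gene Zfp157 and chrX:75396419-75396442 in Fundc2. These matches are descriptions of the letters and not of where transcripts end.
Gm39090: tcaaacaAATAAAaggcttacatt
Zfp157: taaggaagccaAATAAAgtcattg
Fundc2: tctaccctggtctgaAATAAAatc

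Low counts limit what can be seen. The gene table held 32758978 to 56484541 counts per library, the windows with a repeat family 522869 to 899167, and the ERV1 and ERVL windows together 2061 to 3608. No count fell in 2038 of the 2786 windows (73.2%) in any of the 16 libraries, and 49 windows averaged at least 10 counts. Levels are given as counts per 1000000 scaled gene counts (CPM), where scaling uses the TMM factors of the gene table. The windows differ little in length, but a repeat name sums different numbers of windows. Of the cell type markers, the neuronal list (18 genes) summed to 21730 to 25350 CPM in injured and 23650 to 26750 CPM in naive libraries at 24 h, with 1 gene called higher and 5 lower by edgeR, and to 23570 to 24630 CPM in injured and 21760 to 24320 CPM in naive libraries at 72 h, with 2 higher and 11 lower. Over all 19142 tested genes 10.7% were called higher and 8.32% lower at 24 h, and 14.4% higher and 13.5% lower at 72 h. Every gene of every marker list had counts. The macrophage list (9 genes) summed to 15.2 to 24.6 CPM in injured and 14.8 to 24.2 CPM in naive libraries at 24 h, with 0 genes called by edgeR, and to 49.9 to 64.5 CPM in injured and 14.3 to 27.0 CPM in naive libraries at 72 h, with 6 called higher. The neutrophil list (8 genes) summed to 39.8 to 151 CPM in injured and 108 to 418 CPM in naive libraries at 72 h, with 7 called lower. The mural list (5 genes) summed to 223 to 253 CPM in injured and 264 to 296 CPM in naive libraries at 72 h, with 2 called lower. The part of these shifts in the values of the windows was not tested.

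ERVL counts lay mostly in exons of genes, and ERV1 counts more often outside genes. Exons annotated by GENCODE M21 held 188 of 940 ERVL windows but 83.9% of ERVL counts, and 191 of 1846 ERV1 windows but 37.4% of ERV1 counts. The 5 highest windows alone held 56.6% of ERVL and 37.6% of ERV1 counts. In the file's own annotation, 192 ERVL windows are named by a gene feature and not by a repeat, and these held 80.5% of ERVL counts. For ERV1 it was 194 windows and 43.0% of the counts.

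**Figure D1:**
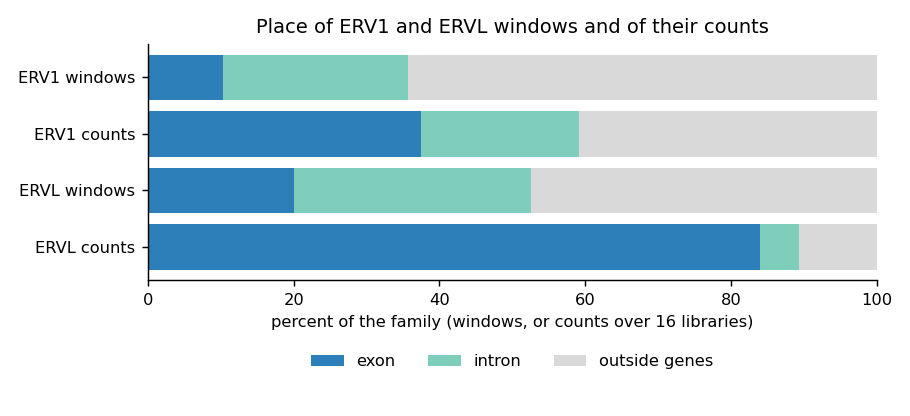
Share of windows and of counts (horizontal axis, percent of the family) in GENCODE exons, introns and outside genes, for ERV1 and ERVL; counts are summed over 16 libraries. ERVL counts lie mostly in exons (83.9%), while 40.9% of ERV1 counts lie outside genes.

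The counts also differed by the strand of the transcript. Of 164 ERV1 and ERVL windows wholly inside exons of plus-strand genes, 110 had counts, 26568 in all. Of 182 windows inside exons of minus-strand genes, 35 had counts, 859 in all. The same held over the whole table, with 29248799 counts in 20963 plus-strand and 303560 counts in 21296 minus-strand exon windows, whereas the gene table held 349386116 counts in plus-strand and 348537187 in minus-strand genes. The labels give no strand setting. Windows in minus-strand exons add few counts to every value given here. Those in Acer3, Zfp944 and Gm26880 were tested, and edgeR called none at 24 h or 72 h (adjusted p 0.562 to 0.967).

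Neither family as a whole was called after the crush. Summed ERV1 reached 37.6, 32.7, 31.3 and 29.5 CPM in injured libraries at 24 h, against 25.8, 26.9, 27.5 and 29.5 CPM in naive libraries. The injured libraries stood at or above the naive ones, with the lowest injured and the highest naive library level. The means were 32.8 ± 3.48 CPM in injured and 27.4 ± 1.54 CPM in naive ganglia (SD, n = 4 each), a log2 fold change of 0.26 (SE 0.09) that edgeR's quasi-likelihood test did not call (adjusted p = 0.0788 over 47 families). DESeq2 placed it past the threshold (0.25, adjusted p = 0.0480), and over all alternatives the adjusted p lay between 0.0480 and 0.400. The exact 2-sided permutation test of the summed CPM gave p = 0.0286, the smallest that 4 against 4 libraries allow, and 0.114 adjusted over the 4 such tests. At 24 h, 0 of the 47 families were called (0.0%), with ERV1 and not ERVL at an unadjusted p under 0.05.

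At 72 h summed ERV1 was 31.3 ± 3.08 CPM in injured and 29.2 ± 2.81 CPM in naive ganglia (log2 fold change 0.10, SE 0.09, edgeR adjusted p = 0.496, where 6.38% of the 47 families were called, 4.26% higher and 2.13% lower). Summed ERVL was 33.6 ± 4.06 CPM in injured and 36.7 ± 2.92 CPM in naive ganglia at 24 h (−0.13, SE 0.08, edgeR adjusted p = 0.336). At 72 h ERVL was 34.9 ± 2.15 CPM in injured and 33.8 ± 0.294 CPM in naive ganglia (0.04, SE 0.08, edgeR adjusted p = 0.803), and its sign turned when the repeat windows set the library sizes (−0.04). The injured and naive libraries overlapped in these 3 comparisons. The difference of the responses, 72 h minus 24 h, was −0.16 (SE 0.13) for ERV1 and 0.17 (SE 0.11) for ERVL, both with an edgeR adjusted p of 0.659, and 0.0% of the families were called. Naive ganglia at 72 h against naive ganglia at 24 h gave 0.09 (SE 0.09) for ERV1 and −0.12 (SE 0.08) for ERVL, neither called by edgeR, where 2.13% of the families were called, all of them higher.

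**Figure D2:**
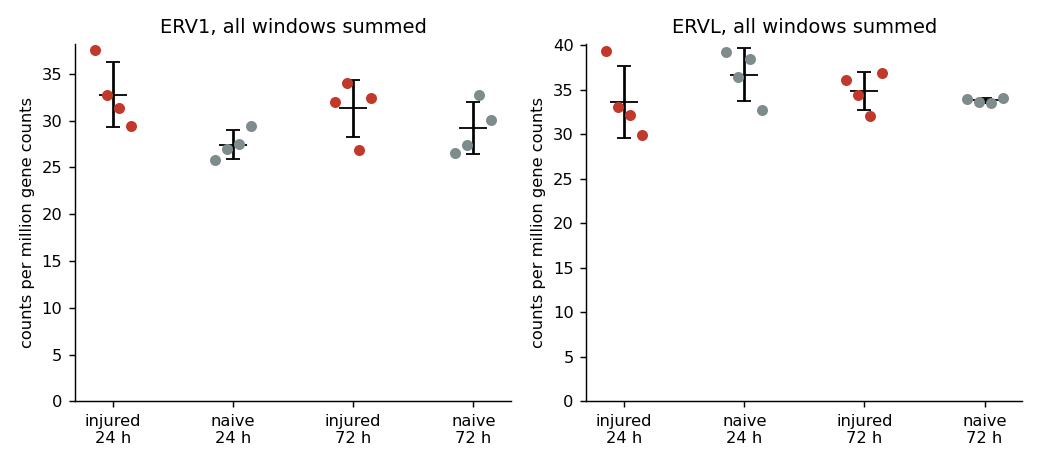
Summed level of all ERV1 windows and of all ERVL windows (vertical axis, CPM) in each library; points are libraries, horizontal marks are means and bars are SD (n = 4). Injured libraries at 24 h have 29.5 to 37.6 CPM of ERV1 against 25.8 to 29.5 CPM in naive libraries, while the ERVL groups overlap at both times.

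Among single copies, a few ERV1 windows were called. Of the 2786 windows, 77 passed the filter on low counts (40 ERV1 and 37 ERVL) and were tested among 3780 windows of all repeat families. At 24 h, 3 ERV1 windows rose and 0 fell, where 5.19% of all tested windows were called, 4.63% higher and 0.556% lower. All 3 passed the filter on low counts only through injured libraries, where they are high, so their calls at 24 h and at 72 h are given as descriptions. The median log2 fold change was 0.56 over the 40 ERV1 windows, −0.36 over the 37 ERVL windows and 0.11 over all tested windows. No ERVL window was called, with 3 at an unadjusted p under 0.05 in edgeR and 0 called by DESeq2. The 3 windows lie within 1705 bp of each other on chromosome 13, between the genes Fgfr4 and Nsd1, in sequence of the VL30 kind: an LTR window named RLTR6_Mm at chr13:55184880-55184903 and 2 internal windows named MMVL30-int at chr13:55186472-55186495 and chr13:55186561-55186584. The files do not state that they form one element, and the labels give no rule for reads that fit several copies, so a window's reads need not all come from this site.

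The first MMVL30-int window had 52, 70, 51 and 41 counts in injured libraries at 24 h, against 17, 1, 0 and 4 counts in naive libraries. At 72 h the counts were 31, 30, 30 and 28 counts in injured libraries, against 2, 0, 2 and 0 counts in naive libraries. At both times every injured library was above every naive one. The level was 1.42 ± 0.296 CPM in injured and 0.118 ± 0.166 CPM in naive ganglia at 24 h (SD, n = 4 each; log2 fold change 3.56, SE 0.74, edgeR adjusted p = 0.00791). At 72 h it was 0.695 ± 0.109 CPM in injured and 0.0244 ± 0.0282 CPM in naive ganglia (4.80, SE 0.90, edgeR adjusted p = 0.00169). Naive replicate 1 held most naive counts at 24 h, and without it the 24 h log2 fold change was 5.19. The call stood in all 23 alternatives run at 24 h (adjusted p up to 0.0484) and in all 23 at 72 h (up to 0.00832). These are refits of a window that passed the filter on low counts only through injured libraries, so they describe it and add no independent support.

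The second MMVL30-int window had 27, 35, 33 and 54 counts in injured libraries at 24 h, against 14, 8, 0 and 4 counts in naive libraries. The 72 h counts were 19, 47, 24 and 16 in injured libraries, against 0, 0, 6 and 1 in naive libraries. Again no injured library overlapped the naive ones. The log2 fold change was 2.84 (SE 0.80, edgeR adjusted p = 0.0444) at 24 h and 3.84 (SE 0.91, edgeR adjusted p = 0.00940) at 72 h. At 24 h the call was lost on leaving out any injured 24 h library, any injured 72 h library, naive 24 h replicate 2, 3 or 4, or naive 72 h replicate 4 (adjusted p up to 0.120) and with the 8 libraries of the comparison alone (0.0840). Nor was the 24 h call made with the replicate number as a block (edgeR adjusted p = 0.107). The log2 fold change was 3.54 without naive 24 h replicate 1, and at 72 h 5.99 without naive 72 h replicate 3.

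The RLTR6_Mm window had 14, 24, 19 and 17 counts in injured libraries at 24 h, against 0, 2, 3 and 0 in naive libraries, with no overlap. At 72 h there were 7, 4, 0 and 11 counts in injured libraries, against 0, 0, 0 and 1 in naive libraries, so that injured replicate 3 lay level with 3 naive libraries. Like the 2 MMVL30-int windows, it passed the filter on low counts only through injured libraries, where it is high. Its call at 24 h (log2 fold change 4.06, SE 1.15, edgeR adjusted p = 0.0458) is therefore given as a description. It did not pass a filter blind to the groups (a mean of at least 10 counts). Both MMVL30-int windows on chromosome 13 passed that filter and were called at 24 h with it. The share of all windows called with that filter is not given here. The 24 h call was also lost without any filter (adjusted p = 0.122), with the 8 libraries of the comparison alone (0.0580) and on leaving out any injured 24 h library, any naive 72 h library, naive 24 h replicate 1, 2 or 4, or injured 72 h replicate 1, 2 or 4 (adjusted p 0.0556 to 0.120). Nor was the 24 h call made with the replicate number as a block (edgeR adjusted p = 0.1003). Without naive 24 h replicate 3 the 24 h fold change was 4.96. At 72 h the 22 counts in injured and the 1 count in naive libraries give a ratio of 23.5 (95% counting interval 3.80 to 969), which edgeR did not call (adjusted p = 0.0567) and which passed without injured 72 h replicate 3 (adjusted p = 0.0355) and by DESeq2 (0.0180). The fitted 72 h value without naive 72 h replicate 4, which held the 1 naive count, was 5.44 and is no bound.

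Summed over the 3 windows, the chromosome 13 site had 93, 129, 103 and 112 counts in injured libraries at 24 h, against 31, 11, 3 and 8 in naive libraries. At 72 h it had 57, 81, 54 and 55 counts in injured libraries, against 2, 0, 8 and 2 in naive libraries. The mean level was 2.89 ± 0.265 CPM in injured and 0.278 ± 0.258 CPM in naive ganglia at 24 h, a ratio of 10.4, and 1.42 ± 0.209 CPM in injured and 0.0714 ± 0.0902 CPM in naive ganglia at 72 h, a ratio of 19.9. A single naive library carried much of each naive mean: without naive 24 h replicate 1 the 24 h ratio was 19.1, and without naive 72 h replicate 3 the 72 h ratio was 51.9. The windows were picked for their response, so these sums describe them and carry no test. At 24 h the macrophage and neutrophil lists overlapped between injured and naive libraries, with 0 of 9 and 0 of 8 genes called by edgeR. The neuronal list had 1 of 18 genes called higher and 5 lower. Satellite glia had 1 of 8 higher and 1 lower, Schwann cells 1 of 7 lower and mural cells 1 of 5 lower. Over all genes 10.7% were called higher and 8.32% lower at 24 h. At 72 h the macrophage sum was higher, and the mural sum lower, in every injured than in every naive library. The neutrophil list had 7 of 8 genes called lower by edgeR, where 13.5% of all genes were called lower, but its sums overlapped between the groups. The part of cell makeup in the difference at 24 h or at 72 h was not tested.

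**Figure D3:**
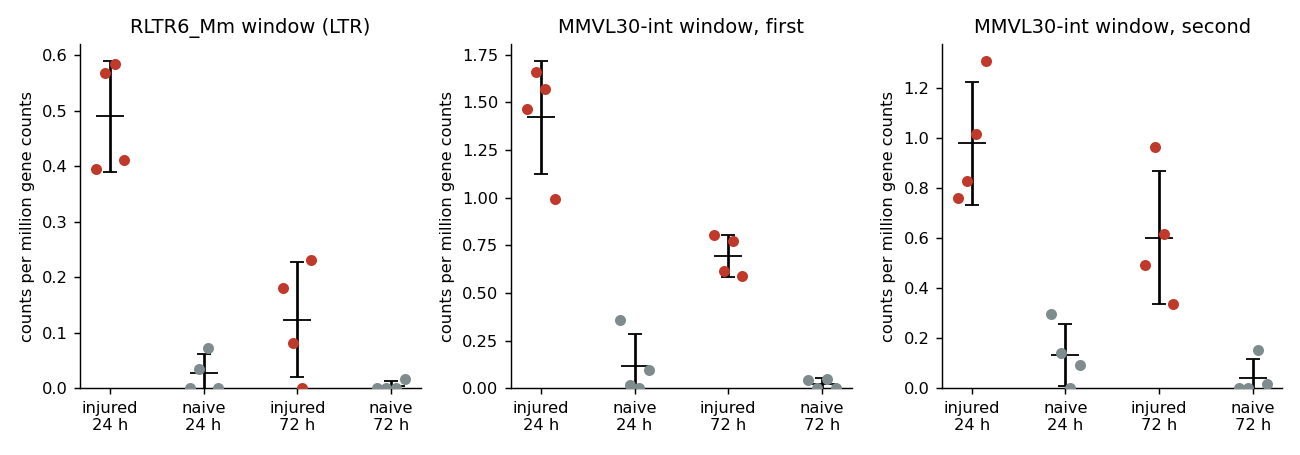
Level of the 3 VL30 windows on chromosome 13 (vertical axes, CPM, a scale for each panel) in each library; points are libraries, horizontal marks are means and bars are SD (n = 4). In both MMVL30-int windows every injured library is above every naive one at 24 h and at 72 h; the RLTR6_Mm window overlaps at 72 h.

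Few counts fell in the other windows of the repeat table around this site. The first window begins 16121 bp after the end of Fgfr4 and the last ends 23198 bp before the start of Nsd1. Of the 18 other windows between the genes, which belong to the B2, Alu and B4 families, 17 had 0 counts in all libraries and the remaining one had 7. These windows are short and leave most of the interval uncounted. Of all ERV1 and ERVL windows, a different set, 73.2% had 0 counts in all libraries. The share for B2, Alu and B4 windows is not given here. Fgfr4, a fibroblast growth factor receptor, had at most 0.0784 CPM as a group mean and was too low to test. Nsd1, a histone methyltransferase, was at 181 ± 13.3 CPM in injured and 174 ± 5.28 CPM in naive ganglia at 24 h (log2 fold change 0.06, SE 0.06, edgeR adjusted p = 0.560). At 72 h it was at 171 ± 7.75 CPM in injured and 175 ± 11.9 CPM in naive ganglia (−0.04, SE 0.06, edgeR adjusted p = 0.672).

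At 72 h, 2 ERV1 windows rose, both MMVL30-int windows on chromosome 13, and 1 fell, where 10.8% of all 3780 tested windows were called, 9.07% higher and 1.75% lower. The 2 that rose passed the filter on low counts only through injured libraries, so their calls at 72 h are descriptions too. No ERVL window was called by edgeR at 72 h (2 at an unadjusted p under 0.05, 1 called by DESeq2). DESeq2 called 6 ERV1 and ERVL windows at 72 h, 4 higher and 2 lower. The 10.8% above is the share by edgeR, and the share of all tested windows called by DESeq2 is not given here. The window that fell carries the LTR name RLTR14 and lies outside genes at chr4:156208147-156208170, 2996 bp from the gene AW011738. It had 2, 1, 0 and 3 counts in injured libraries at 72 h, against 8, 34, 25 and 8 in naive libraries, with no overlap. The log2 fold change was −3.51 (SE 1.00, edgeR adjusted p = 0.0292). The call was lost on leaving out injured 72 h replicate 1, 2 or 3 or naive 72 h replicate 2 or 3 (adjusted p 0.0539 to 0.0964). With the replicate number as a block the window was not called at 72 h (edgeR adjusted p = 0.114). At 24 h it had 0, 11, 6 and 19 counts in injured libraries and 23, 12, 12 and 47 in naive libraries (−1.18, SE 0.85, edgeR adjusted p = 0.546). AW011738 itself was not called at 72 h (0.967 ± 0.282 CPM in injured and 1.25 ± 0.331 CPM in naive ganglia, edgeR adjusted p = 0.460).

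No ERV1 or ERVL window was called by edgeR for the difference of the responses, where 2 had an unadjusted p under 0.05, DESeq2 called 0 and 0.265% of all tested windows were called. For the first MMVL30-int window on chromosome 13 the response at 72 h minus that at 24 h was 1.24 (SE 1.13, edgeR adjusted p = 0.858), and for the second 1.00 (SE 1.15, edgeR adjusted p = 0.894). None was called between naive ganglia at 72 h and naive ganglia at 24 h, where 2 had an unadjusted p under 0.05, DESeq2 called 0 and 0.0794% of all tested windows were called.

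Summed by repeat name, the VL30 internal sequence was called at both times. MMVL30-int has 284 windows, of which 211 lie outside genes, 64 in introns and 9 in exons; 100 had counts. It reached 7.89, 6.13, 6.78 and 5.14 CPM in injured libraries at 24 h, against 3.13, 2.75, 2.62 and 3.52 CPM in naive libraries. The 72 h values were 4.75, 5.47, 4.46 and 4.46 CPM in injured libraries, against 2.47, 2.28, 4.02 and 3.83 CPM in naive libraries. Injured libraries were above all naive ones at both times, but by little at 72 h. The log2 fold change was 1.11 at 24 h (SE 0.18, edgeR adjusted p = 0.00241) and 0.60 at 72 h (SE 0.18, edgeR adjusted p = 0.0477). Of 37 ERV1 and ERVL names tested among 504, 1 rose and 1 fell at 24 h, where 3.77% of all names were called, 2.98% higher and 0.794% lower. At 72 h 2 rose and 0 fell, where 8.13% of all names were called, 5.56% higher and 2.58% lower.

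The 2 chromosome 13 windows were picked for their response, so a larger share of these counts in injured than in naive libraries follows from the choice. They held 37.4% of the MMVL30-int counts in injured and 8.54% in naive libraries at 24 h, and 27.0% in injured and 1.88% in naive libraries at 72 h. The other MMVL30-int windows summed to 4.08 ± 1.19 CPM in injured and 2.76 ± 0.387 CPM in naive ganglia at 24 h, and to 3.49 ± 0.340 CPM in injured and 3.08 ± 0.845 CPM in naive ganglia at 72 h. Without the 3 chromosome 13 windows, an alternative chosen after seeing the data, MMVL30-int was not called at 24 h (log2 fold change 0.57, edgeR adjusted p = 0.171, against 1.75e-06 to 0.171 over all 26 alternatives) nor at 72 h (0.18, edgeR adjusted p = 0.775, against 0.0228 to 0.775). Of the 7 other MMVL30-int windows that were tested, none was called, with log2 fold changes of −1.19 to 2.24 at 24 h and −1.76 to 1.96 at 72 h. The 72 h call of the name was also lost on leaving out any injured 72 h or naive 24 h library, naive 72 h replicate 1 or 2, or injured 24 h replicate 2 or 3 (adjusted p 0.0516 to 0.188). It was lost, too, with library sizes from the repeat windows, without the filter, with the 8 libraries alone, outside exons and with windows of 24 bp alone (0.0538 to 0.0929). With the replicate number as a block the 72 h call was not made either (edgeR adjusted p = 0.0866).

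**Figure D4:**
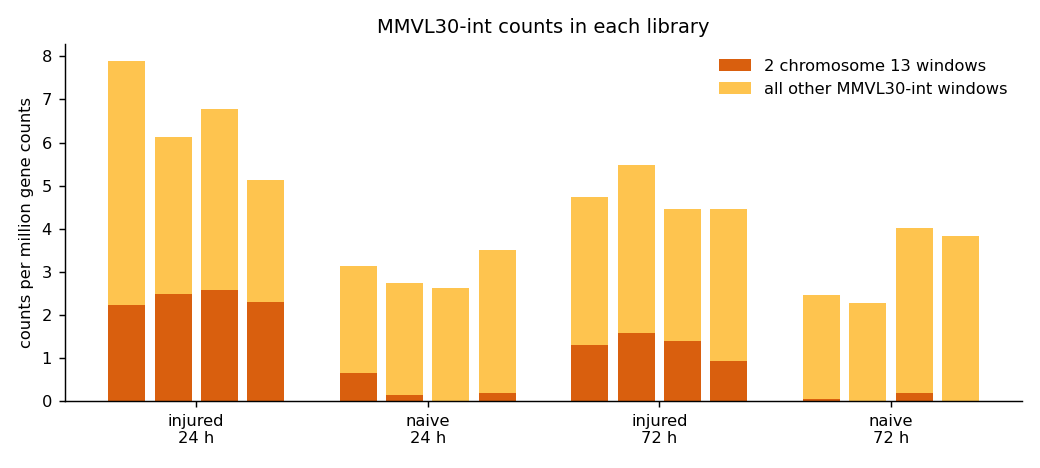
MMVL30-int counts in each of the 16 libraries (vertical axis, CPM), split into the 2 chromosome 13 windows and all other MMVL30-int windows. The chromosome 13 share is 37.4% in injured and 8.54% in naive libraries at 24 h, and 27.0% in injured and 1.88% in naive libraries at 72 h. The chromosome 13 windows were picked for their response.

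MuRRS-int, a further murine retrovirus-related name, rose at 72 h. It reached 1.25, 1.29, 1.19 and 0.568 CPM in injured libraries, against 0.256, 0.149, 0.178 and 0.641 CPM in naive libraries. Injured replicate 4, the lowest injured library, lay below naive replicate 4, the highest naive one, and the other 3 libraries of each group did not overlap. The log2 fold change was 1.78 (SE 0.52, edgeR adjusted p = 0.0374), and the call was lost on leaving out injured 72 h replicate 1, 2 or 3 or naive 72 h replicate 1, 2 or 3 (adjusted p 0.0817 to 0.133), with the 8 libraries alone (0.0521) and outside exons (0.0588). With the replicate number as a block MuRRS-int was not called at 72 h (edgeR adjusted p = 0.0866). Without naive 72 h replicate 4 the log2 fold change was 2.44. A pair of windows in an intron of Senp7, a SUMO protease, held 48.2% and 44.2% of the counts. The first, at chr16:56052306-56052329, had 27, 42, 34 and 19 counts in injured and 1, 2, 2 and 23 counts in naive libraries at 72 h (2.36, SE 0.82, edgeR adjusted p = 0.0770), and the second 20, 11, 12 and 8 counts in injured and 10, 5, 3 and 10 counts in naive libraries. At 24 h MuRRS-int was at 0.551 ± 0.187 CPM in injured and 0.293 ± 0.145 CPM in naive ganglia (0.90, SE 0.52, edgeR adjusted p = 0.440).

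Internal sequences related to murine leukemia virus were among the most abundant names and were not called. RLTR4_MM-int reached 4.68, 3.48, 4.16 and 4.05 CPM in injured libraries at 24 h, against 3.04, 2.83, 3.01 and 2.95 CPM in naive libraries, without overlap (0.47, SE 0.16, edgeR adjusted p = 0.140). At 72 h it was lower in the mean, with 2.88 ± 0.670 CPM in injured and 3.85 ± 0.540 CPM in naive ganglia (−0.41, SE 0.16, edgeR adjusted p = 0.149), and the difference of the responses was −0.88 (SE 0.23, edgeR adjusted p = 0.104). MuLV-int was at 1.28 ± 0.197 CPM in injured and 0.880 ± 0.381 CPM in naive ganglia at 24 h (0.55, SE 0.34) and at 0.941 ± 0.391 CPM in injured and 0.949 ± 0.103 CPM in naive ganglia at 72 h.

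MMERGLN-int, an internal sequence whose reads lie mostly in exons of Gm42047 and Gm20388 on chromosome 8, was higher in every injured than in every naive library at 72 h, without being called. It reached 1.01, 1.82, 1.78 and 1.41 CPM in injured libraries, against 0.443, 0.896, 0.915 and 0.659 CPM in naive libraries (1.05, SE 0.37, edgeR adjusted p = 0.1003). The window in Gm42047 held 64.8% of its counts and had 23, 50, 60 and 38 counts in injured and 9, 24, 21 and 28 counts in naive libraries at 72 h (1.17, SE 0.44, edgeR adjusted p = 0.109). The gene Gm42047 rose at 72 h, with 5.79 ± 0.883 CPM in injured and 2.65 ± 0.456 CPM in naive ganglia (1.13, SE 0.22, edgeR adjusted p = 2.93e-04). Its exon holds this window, so its own count may take in the same reads. At 24 h the gene was at 2.26 ± 0.604 CPM in injured and 2.00 ± 0.522 CPM in naive ganglia (0.17, SE 0.22, edgeR adjusted p = 0.683).

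The other names of high level or small p were not called. MER34B-int, with 2 detected windows near Gm4202, was at 1.73 ± 0.215 CPM in injured and 1.40 ± 0.434 CPM in naive ganglia at 24 h, and at 1.78 ± 0.450 CPM in injured and 1.53 ± 0.235 CPM in naive ganglia at 72 h. RMER15, the most abundant ERVL repeat name, was at 0.867 ± 0.276 CPM in injured and 1.47 ± 0.422 CPM in naive ganglia at 24 h (−0.76, SE 0.36, edgeR adjusted p = 0.331), and at 1.32 ± 0.572 CPM in injured and 1.12 ± 0.321 CPM in naive ganglia at 72 h. LTR105_Mam, with 102 of its 106 counts in 1 window, was at 0.220 ± 0.111 CPM in injured and 0.0445 ± 0.0532 CPM in naive ganglia at 24 h (2.20, SE 1.06, edgeR adjusted p = 0.331). No ERV1 or ERVL name was called by edgeR for the difference of the responses (3 at an unadjusted p under 0.05, 0 by DESeq2, 0.397% of all names called) nor between naive ganglia at 72 h and naive ganglia at 24 h (2 at an unadjusted p under 0.05, 0 by DESeq2, 0.595% of all names called).

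The ERVL windows annotated as non-coding RNA exons fell at 24 h as a group. They reached 6.12, 4.07, 4.87 and 3.61 CPM in injured libraries, against 6.996, 7.17, 5.75 and 7.38 CPM in naive libraries, with an overlap through injured replicate 1. The log2 fold change was −0.55 (SE 0.15, edgeR adjusted p = 0.0423), and the call was lost on leaving out injured 24 h replicate 2, 3 or 4, naive 24 h replicate 1, 2 or 4, injured 72 h replicate 1 or 4, or naive 72 h replicate 2 or 4 (adjusted p 0.0514 to 0.163). It was lost, too, without the filter (0.110), with the 8 libraries alone (0.118) and with windows of 24 bp alone (0.0704). Nor was it made with the replicate number as a block (edgeR adjusted p = 0.0674). Nearly all of these counts lie in 3 windows of B230354K17Rik. Its most abundant window was at 3.39 ± 1.09 CPM in injured and 4.71 ± 0.582 CPM in naive ganglia at 24 h (−0.48, SE 0.20, edgeR adjusted p = 0.199). The whole gene was at 26.3 ± 4.29 CPM in injured and 29.1 ± 1.13 CPM in naive ganglia (−0.15, SE 0.09, edgeR adjusted p = 0.286). At 72 h the windows were at 5.05 ± 0.584 CPM in injured and 5.23 ± 0.372 CPM in naive ganglia (−0.05, SE 0.15).

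The windows with the highest levels sit in or beside genes, and none of these 6 was called. The Aldh4a1 window, the highest of all, was at 9.32 ± 1.90 CPM in injured and 10.6 ± 2.23 CPM in naive ganglia at 24 h, and at 9.01 ± 2.09 CPM in injured and 9.73 ± 0.365 CPM in naive ganglia at 72 h. The gene Aldh4a1 fell at 24 h, with 15.8 ± 2.11 CPM in injured and 19.7 ± 2.15 CPM in naive ganglia (−0.32, SE 0.11, edgeR adjusted p = 0.0365). The Syn2 window was at 6.27 ± 1.45 CPM in injured and 6.52 ± 0.803 CPM in naive ganglia at 24 h, and at 6.00 ± 0.480 CPM in injured and 6.89 ± 0.387 CPM in naive ganglia at 72 h (−0.20, SE 0.16, edgeR adjusted p = 0.566). The gene Syn2 fell at 72 h, with 147 ± 8.82 CPM in injured and 196 ± 11.1 CPM in naive ganglia (−0.41, SE 0.05, edgeR adjusted p = 1.51e-06).

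The Map4k4 window had the smallest p of any ERVL window at 24 h. It had 141, 228, 145 and 171 counts in injured and 127, 196, 163 and 122 counts in naive libraries, and after scaling every injured library was above every naive one. Its level was 4.50 ± 0.636 CPM in injured and 3.24 ± 0.565 CPM in naive ganglia (0.47, SE 0.18, edgeR adjusted p = 0.159). The gene Map4k4 rose at 24 h by about the same amount, with 232 ± 10.3 CPM in injured and 169 ± 6.91 CPM in naive ganglia (0.46, SE 0.05, edgeR adjusted p = 9.78e-07), and at 72 h, with 242 ± 10.5 CPM in injured and 183 ± 12.4 CPM in naive ganglia (0.40, SE 0.05, edgeR adjusted p = 3.01e-06).

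Next in level came a window 83 bp beyond the GENCODE end of Dclk3, a kinase gene, which the file annotates as 3′ UTR. It was at 2.86 ± 0.881 CPM in injured and 2.25 ± 0.565 CPM in naive ganglia at 24 h, and at 2.36 ± 0.675 CPM in injured and 2.16 ± 0.371 CPM in naive ganglia at 72 h (0.13, SE 0.26, edgeR adjusted p = 0.852). The gene Dclk3 fell at 72 h, with 46.4 ± 3.895 CPM in injured and 58.9 ± 4.07 CPM in naive ganglia (−0.34, SE 0.07, edgeR adjusted p = 4.40e-04). The Mrps2 window was at 1.22 ± 0.454 CPM in injured and 1.57 ± 0.524 CPM in naive ganglia at 24 h, and at 1.02 ± 0.435 CPM in injured and 1.23 ± 0.251 CPM in naive ganglia at 72 h. The gene Fv1 was not called at either time. It stood at 4.24 ± 0.669 CPM in injured and 2.87 ± 0.461 CPM in naive ganglia at 72 h (0.57, SE 0.22, edgeR adjusted p = 0.0652), while its window had a log2 fold change of 0.69, also not called.

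Over the 32 tested windows that lie in an exon of a tested gene (27 genes), the fold changes of window and gene were set side by side. The Pearson correlation across windows was 0.308 at 24 h and 0.347 at 72 h. It is a description only, since windows of a gene may share reads with it and with each other, and most have few counts. The median log2 fold change was −0.08 for the windows and −0.14 for their genes at 24 h, and 0.06 for the windows and −0.10 for their genes at 72 h. None of the 32 windows was called at either time, where 5.19% of all tested windows were called at 24 h and 10.8% at 72 h. Of the 32, 8 lay in a called gene at 24 h and 9 at 72 h, where 19.0% and 27.9% of all tested genes were called.

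**Figure D5:**
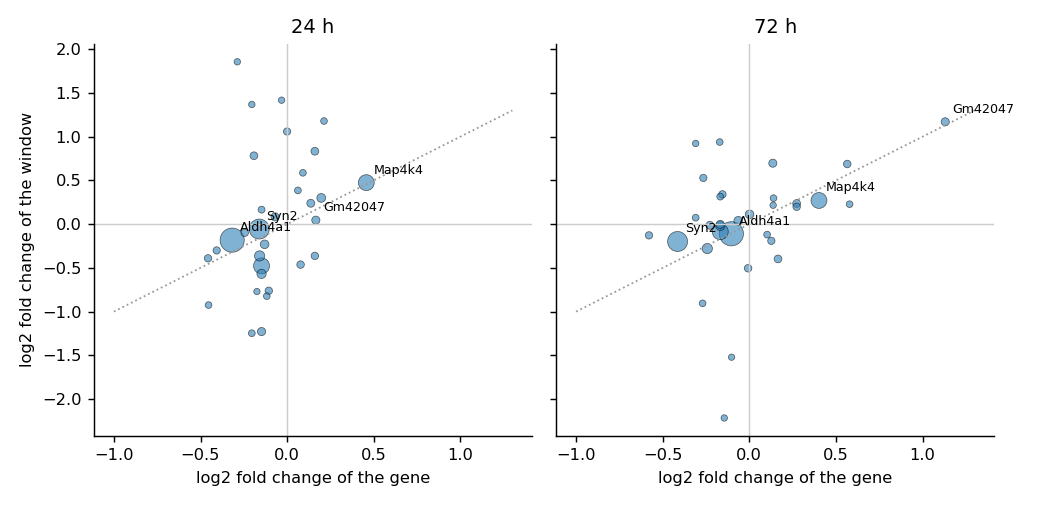
Log2 fold change, injured over naive, of 32 exon windows (vertical axis) against that of the gene holding them (horizontal axis) at 24 h and 72 h; the point area grows with the window's total count and the dotted line marks equal change. Map4k4 lies near the line at 24 h (0.47 for the window and 0.46 for the gene) and Gm42047 at 72 h (1.17 for the window and 1.13 for the gene), while windows with few counts scatter widely.

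Few genes that silence endogenous retroviruses changed at 24 h. Of 40 tested, 2 rose and 0 fell, where 19.0% of all 19142 tested genes were called, 10.7% higher and 8.32% lower, and the median log2 fold change was 0.04 against −0.01 over all genes. The number called was 4 without injured 24 h replicate 1 or without injured 24 h replicate 4, and 6 without naive 24 h replicate 1. At 72 h 7 rose and 4 fell, where 27.9% of all genes were called, 14.4% higher and 13.5% lower (median 0.02 against −0.01). Dnmt1, the maintenance DNA methyltransferase, was at 81.6 ± 9.75 CPM in injured and 57.4 ± 7.47 CPM in naive ganglia at 24 h (0.51, SE 0.08, edgeR adjusted p = 1.09e-04). Morc2a, a partner of the HUSH silencing complex, was at 52.6 ± 4.55 CPM in injured and 39.3 ± 4.77 CPM in naive ganglia (0.42, SE 0.08, edgeR adjusted p = 5.56e-04). The histone methyltransferase gene Suv39h2 was at 8.34 ± 0.977 CPM in injured and 6.47 ± 1.01 CPM in naive ganglia and was not called (edgeR adjusted p = 0.0611). It passed without naive 24 h replicate 1 (adjusted p = 0.0248, against 0.0248 to 0.205 over all alternatives).

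At 72 h the de novo methyltransferase Dnmt3a fell to 16.7 ± 0.952 CPM in injured ganglia, against 22.8 ± 1.70 CPM in naive ganglia (−0.45, SE 0.08, edgeR adjusted p = 1.30e-04). Hells, a chromatin remodeler needed for DNA methylation of repeats, fell to 14.4 ± 2.20 CPM in injured ganglia, against 22.9 ± 0.484 CPM in naive ganglia (−0.67, SE 0.12, edgeR adjusted p = 2.14e-04). Kdm1a, a lysine demethylase that represses MERVL in mouse embryonic stem cells, rose to 78.7 ± 5.79 CPM in injured ganglia, against 60.9 ± 2.61 CPM in naive ganglia (0.37, SE 0.07, edgeR adjusted p = 2.55e-04). Dnmt1 and Morc2a were called higher at 72 h too. Their log2 fold changes were 0.24 (SE 0.08, edgeR adjusted p = 0.03755) and 0.33 (SE 0.08, edgeR adjusted p = 0.00298). In the whole list 7 genes rose and 4 fell at 72 h.

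About as many genes that sense or restrict retroviral nucleic acids rose at 24 h as did not. Of 25 tested, 13 rose and 0 fell at 24 h, where 10.7% of all genes rose and 8.32% fell, with a median log2 fold change of 0.56 against −0.01 over all genes, and 2 rose and 0 fell at 72 h, where 14.4% of all genes rose and 13.5% fell, with a median of 0.03. Without injured 24 h replicate 1, 4 rose at 72 h. For the difference of the responses 0 were higher and 10 were lower at 72 h than at 24 h, where 6.31% of all genes were called, 2.86% higher and 3.44% lower. Between naive ganglia at 72 h and naive ganglia at 24 h 1 sensing gene was higher and none lower, where 2.34% of all genes were called, 1.61% higher and 0.731% lower. Stat2, which carries the type I interferon signal, was at 111 ± 3.98 CPM in injured and 63.0 ± 3.35 CPM in naive ganglia at 24 h (0.82, SE 0.06, edgeR adjusted p = 3.11e-10). Zc3hav1, the zinc finger antiviral protein that binds retroviral RNA, was at 73.6 ± 3.70 CPM in injured and 39.9 ± 2.76 CPM in naive ganglia (0.88, SE 0.06, edgeR adjusted p = 4.98e-10). Tmem173, the DNA-sensing adaptor STING, was at 13.6 ± 2.37 CPM in injured and 2.52 ± 0.795 CPM in naive ganglia (2.43, SE 0.21, edgeR adjusted p = 1.10e-08).

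At 72 h Zc3hav1 was at 61.7 ± 2.20 CPM in injured and 44.6 ± 2.47 CPM in naive ganglia (0.47, SE 0.06, edgeR adjusted p = 4.33e-06), and Tmem173 at 7.13 ± 1.20 CPM in injured and 2.63 ± 0.655 CPM in naive ganglia (1.44, SE 0.21, edgeR adjusted p = 1.01e-05). Zbp1, a sensor of Z-form nucleic acids, was at 0.564 ± 0.239 CPM in injured and 0.192 ± 0.124 CPM in naive ganglia and was not called (1.54, SE 0.59, edgeR adjusted p = 0.0548). It passed without injured 72 h replicate 1 (adjusted p = 0.0354), naive 72 h replicate 1 (0.0300) or injured 24 h replicate 1 (0.0450), and by DESeq2 (0.0301), against 0.0300 to 0.156 over all alternatives. Both lists were chosen for what their genes are known to do, with other results of these data known, and no link between them and the VL30 windows was tested.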

How the data were processed

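RNA of 16 libraries was deposited as 2 tables of counts that the authors did not scale, 1 for genes and 1 for repeat windows, with TruSeq libraries per the labels' protocols. Per the submitters' processing notes, bcl2fastq 2.17, STAR and HTSeq were used with GRCm38 and mm10; how windows were chosen, the strand setting and the treatment of reads with several matches are not given in the sources used here. The 72 h columns name no time and were assigned by elimination.

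Counts were tested with edgeR 4.0.16 (R 4.3.3): a quasi-likelihood model with 1 mean per group over the 16 libraries, filterByExpr (minimum count 10, minimum total 15), gene-table library sizes and TMM factors for genes and windows, Benjamini-Hochberg adjustment at 0.05. Standard errors are the absolute log2 fold change over the square root of F. Windows were tested singly, summed by family and annotation name (names of gene features kept apart), and summed by family without a filter. Alternatives included DESeq2 1.42.0. The fits were also run on simulated counts with a single fixed spread, where recovery of set changes was held to a limit for genes only. The larger spread of windows with few counts was not simulated, so the window calls were not checked by it. Intervals cover counting error only, since reads are not independent molecules. P-values measure the spread between libraries.

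GENCODE M21 placed the windows: of 73 annotated by the file as exon, UTR or non-coding, 66 lay inside a GENCODE exon. All window names that carry a transcript accession (335) matched a RefSeq gene (GRCm38.p6). Replicates differed by more than sampling noise (chi-square over its degrees of freedom 9.56 or more), so none was counted as a repeat.

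Named repeat names are the 6 of highest level, those called and the 3 of smallest p in each injury comparison; named windows are the 6 of highest level, those called and the 4 of smallest p in each; named genes are their host or nearest gene within 5 kb and the 3 list members of smallest p in each. Gm42047, Fv1, Fgfr4, Nsd1 and the windows inside a name were chosen after their values were seen. The members, lists and tests were chosen with earlier results of these data known.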

Additional observations from a re-analysis of the deposited data

Results flagged for a closer look

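In groups of 4 libraries, a library was picked out when its gap to the nearest other exceeded Dixon's 95% critical share of the group's range. Of 84 groups examined 4 were picked out, and chance picks out about 1 in 20.

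MuRRS-int was low in injured 72 h replicate 4, at 0.568 CPM against 1.19 to 1.29 CPM in the other 3 injured libraries. The Aldh4a1 window was high in injured 24 h replicate 1, at 12.1 CPM against 8.22 to 8.67 CPM. The second MMVL30-int window on chromosome 13 was high in naive 72 h replicate 3, at 0.153 CPM against 0 to 0.0178 CPM, which is 6 counts against 0 or 1. The RLTR6_Mm window was high in naive 72 h replicate 4, at 0.0178 CPM, which is 1 count where the other 3 naive libraries had 0.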

How the results depend on the processing

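The counts of calls were small and moved with the processing. At 24 h the 3 windows called became 1 with the replicate number as a block or with the 8 libraries of the comparison alone, and 1 to 2 when a library was left out. At 72 h the 3 windows called became 6 with DESeq2 and 2 to 4 when a library was left out. The 2 names called at 24 h became 1 with the block, without the filter, with the 8 libraries alone, outside exons, with windows of 24 bp alone or without the chromosome 13 windows, and 1 to 2 when a library was left out. Outside exons the drop follows from the setting, since the ERVL non-coding name has nearly all its counts in exons. The 2 names called at 72 h became 0 with the block, with the 8 libraries alone or outside exons, 1 without the filter, with windows of 24 bp alone or without the chromosome 13 windows, and 0 to 2 when a library was left out. The causes of these shifts were not tested.

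The ERV1 sum at 24 h passed by DESeq2 (0.25), which was run on families past the filter on low counts. The ERVL sum at 72 h turned to −0.043 with library sizes from the repeat windows. Per 1000000 counts in repeat windows, the injured minus naive difference turned to −64.1 for ERV1 at 24 h and −74.8 for ERVL at 72 h (exact permutation adjusted p = 0.943 each). The silencing genes called at 24 h were 5 with the block, 4 without the filter and 2 to 6 when a library was left out. The sensing genes called at 72 h were 4 with DESeq2, the block or no filter, and 2 to 4 when a library was left out.

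Over the values of whole comparisons, 439 alternatives kept direction and side of the threshold or, for counts, stayed within 1.5 times of the count, where the split into higher and lower could still shift; 57 counts moved further, 3 values reversed and 1 gained a call. For single windows, names and genes 525 kept theirs or moved by under 1 SD, 80 lost a call and 8 gained one. Same-numbered injured and naive libraries deviated together only weakly (r 0.0470 to 0.101), but 7 of 8 injured libraries were closest to their own number. Equal numbers may therefore stand for the same mouse. No label states this, and the main fit left the numbers unpaired. With the block the calls of MMVL30-int (adjusted p = 0.0866), MuRRS-int (0.0866) and RLTR14 (0.114) at 72 h and of the second MMVL30-int window (0.107), RLTR6_Mm (0.1003) and the ERVL non-coding windows (0.0674) at 24 h in edgeR were not made, and Suv39h2 was called (0.0461). The block moved no other count of calls by over 1.5 times. With 2038 windows at 0 and most others under 10 counts, changes in single copies of low level were not detectable with these counts. Within exons, 147 of 182 minus-strand windows had no counts, against 54 of 164 plus-strand windows. The parts of depth and strand in the zeros were not tested.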
